A study of Mus musculus with 4 samples.

Results

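The histone H3 kinases described here are 6 genes, Chek1, Aurka, Aurkb, Aurkc, Haspin and Vrk1, chosen by name as kinases that phosphorylate histone H3, including candidates for serine 31 of the variant H3.3. All 6 were found by symbol among the 55291 features of the count table. RNA was sequenced from mouse zygotes, fertilised eggs before their first division, in 4 samples with 1 sample in each group. Zygotes injected with an agent labelled H3.3 MO (not spelled out in the labels, usually a morpholino, an antisense oligonucleotide) had a control of their own, and zygotes injected with H3.3 S31A, the variant with serine 31 replaced by alanine, had a separate control. The sources used here do not give what control zygotes received, the mouse strain, the number of zygotes per sample or the time after fertilisation. Each sample had 2 count columns, called libraries 1 and 2. Nothing says that they came from separate pools of zygotes, so they are shown side by side and not counted as replicates. A group of 1 sample allows no test of injected against control zygotes.

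Kinases of this group place phosphate on the N-terminal tail of H3, mostly as chromosomes condense for division. Haspin phosphorylates a threonine close to the tip of the tail, and that mark brings the chromosomal passenger complex, with Aurora B or its germ-cell relative Aurora C, to centromeres. The Aurora kinases phosphorylate serines further along the tail, Aurora A acts mainly at spindle poles, CHK1 (from Chek1) is the checkpoint kinase activated by ATR and a reported kinase of H3.3 serine 31, and VRK1 is a nuclear kinase that also phosphorylates H3. A zygote still runs mostly on RNA stored by the oocyte, and Aurkc in particular is known as an oocyte and sperm-cell gene. In these bulk samples, fewer RNA-bearing cells and less RNA per cell cannot be told apart.

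Library totals ran from 5661621 to 13233371 counts, with 11372 to 15156 genes detected. The experiments stood apart: 13159 to 15156 genes had counts in MO libraries and 11372 to 11791 in S31A libraries, and the mitochondrial share of counts was 3.47% to 5.55% and 7.13% to 10.4%. What this offset contributes to differences between the controls was not tested. All 10 oocyte and zygote markers had counts in every sample, summing to 5836 to 13758 CPM (counts scaled to library size, here with TMM factors) per library, while 8 or 9 of 10 cumulus and granulosa cell markers and 4 or 5 of 6 sperm markers were at 0 in each sample. The summed level of the cumulus and granulosa cell markers was 46.7 and 47.3 CPM in the MO control libraries, 53.3 to 91.2 in the MO injected, 35 to 90.2 in the S31A control and 66.4 to 166 in the S31A injected libraries. It came almost wholly from Cyp19a1 (log2 ratio 0.70 with MO and 0.93 with S31A injection, or 0.24 and 0.07 without library 1 of the injected sample), while Amh, Fshr, Foxl2 and Has2 were at 0 in all 8 libraries. Of the oocyte and zygote markers, 3 passed 2-fold upward with MO injection, all resting on MO injected library 1, without which Zar1 went from 2.03 to -0.31, Gdf9 from 1.79 to -0.79 and Zp3 from 1.37 to -0.54. Another 2 passed downward, Bmp15 at -1.17 (-0.62 without MO injected library 1) and Ooep at -1.39 (-0.46 without MO control library 2). With S31A injection 1 passed downward, Npm2 at -1.71 (-1.89 to -1.51 with a library left out). Among all genes with 10 CPM or more in either sample, 9.86% passed upward and 13.8% downward with MO, and 16.2% downward with S31A. The part of these marker shifts in the values of the kinases was not tested. The H3.3 gene H3f3b stood at 2.30 and 10.5 CPM in the MO injected libraries and at 1453 to 2749 CPM in the other 6, and H3f3a at 8.04 and 52.4 CPM against 462 to 657 CPM. With S31A injection H3f3b had 2438 and 2749 CPM, above its controls with 1453 and 1819 CPM. Its log2 ratio was 0.65 (0.50 to 0.81 with a library left out). Both injected libraries lay above both controls for 19.8% of genes. H3f3a stood at -0.13 there with overlapping libraries. Between the 2 libraries of a sample, 19.9% (MO control) to 33.6% (MO injected) of genes were at least 2-fold apart.

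Aurkc comes first because its counts cannot be read alone. Aurkc lies on chromosome 7 from 6995300 to 7003091 (mm10, plus strand) and its coding sequence of 945 bases is joined from exons over 6 junctions. Among GENCODE M21 transcripts it had 10 copies at 85% identity or more over at least 50% of the coding sequence. None was found for the other 5 kinases. Of these copies, 9 form a cluster of unprocessed pseudogenes on chromosome 7 between 10810780 and 11594194, at 93.4% to 95.8% identity. The remaining copy, Gm12463, is a processed pseudogene on chromosome 4 from 44752277 to 44753125 (minus strand), overlaps no other annotated gene, and aligned to 825 coding bases with 3 substitutions, A822G, G894A and T939G (Aurkc base, position from 1 at the first base of its start codon, copy base). Within this alignment 704 consecutive bases, from coding base 118 to 821 and across 5 exon junctions, were the same in both. The sequences below cover coding bases 736 to 855, with 60 bases on each side of the junction after base 795. They are shown because a read over that junction is continuous in the intronless Gm12463 but split by an intron at Aurkc. Capitals mark each base at which Aurkc and Gm12463 differ in the first pair, and each base that differs from Aurkc in Gm7789 and Gm45598, both annotated as transcribed pseudogenes of the chromosome 7 cluster.
Aurkc: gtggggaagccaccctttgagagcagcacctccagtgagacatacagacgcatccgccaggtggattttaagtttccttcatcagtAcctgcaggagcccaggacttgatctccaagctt
Gm12463: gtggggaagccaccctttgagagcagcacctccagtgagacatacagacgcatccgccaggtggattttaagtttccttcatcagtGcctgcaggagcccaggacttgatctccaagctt
Gm7789: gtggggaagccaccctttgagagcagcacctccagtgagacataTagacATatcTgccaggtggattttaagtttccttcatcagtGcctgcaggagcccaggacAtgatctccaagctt
Gm45598: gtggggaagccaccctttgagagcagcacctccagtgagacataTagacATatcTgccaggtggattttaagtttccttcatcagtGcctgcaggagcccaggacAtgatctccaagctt
Gm12463 differed from Aurkc at 1 base of the 120, and Gm7789 and Gm45598 at 6 each.

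The table placed far more counts on the copy than on the gene. Aurkc had 1134 and 232 counts in the MO control libraries, and Gm12463 had 5247 and 1521. In the MO injected libraries Aurkc had 873 and 602 counts and Gm12463 had 5596 and 3119. In the S31A control libraries Aurkc had 1017 and 1214 counts and Gm12463 had 7227 and 7961, and in the S31A injected libraries Aurkc had 1499 and 1214 and Gm12463 had 11608 and 6947. Gm12463 was thus 4.63 to 7.74 times as high as Aurkc in every library, and per length it stood at 804 to 2678 TPM (counts divided by gene length and scaled to the same sum in each library) against 68.4 to 214 TPM for Aurkc. Aurkc held 11.4% (95% Wilson interval 10.9 to 12) of the counts of the pair in S31A injected library 1, the lowest share, and 17.8% (16.9 to 18.7) in MO control library 1, the highest. The 9 copies on chromosome 7 held together 0.694% to 3.84% of all Aurkc-like counts, and 3 of them were at 0 in every library. The sources used here do not say how reads matching both Aurkc and Gm12463 were divided, and whether the copy is transcribed in zygotes was not tested. The aligner named by the submitters keeps each read in 1 piece, so Aurkc reads over exon junctions can match the copy whole. What this does to the split of counts was not tested.

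**Figure D1:**
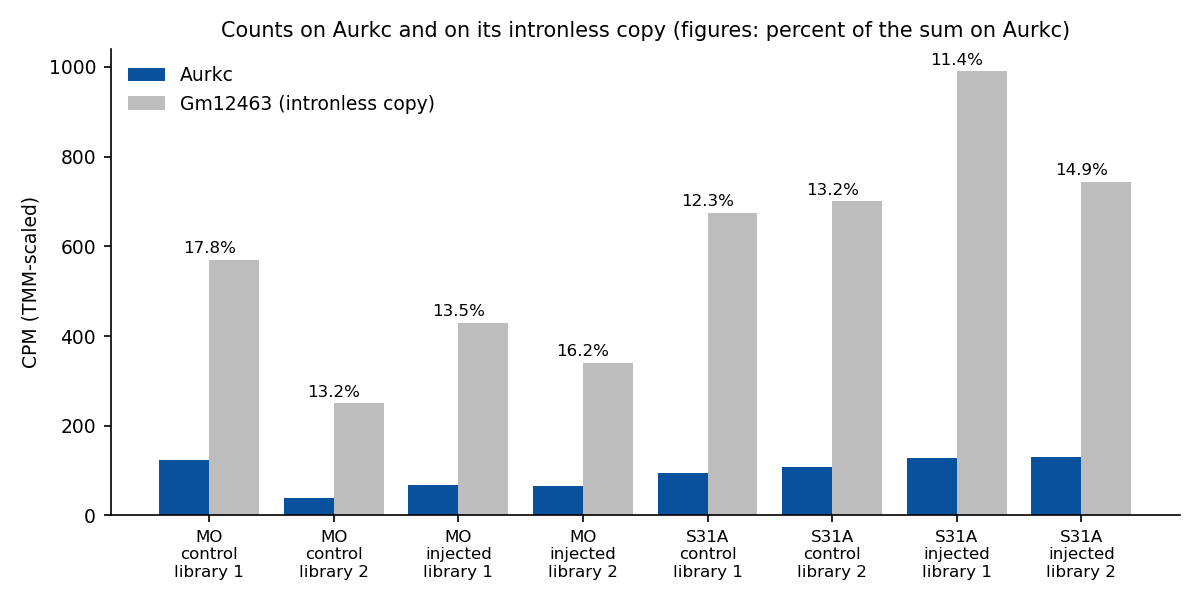
Counts on Aurkc (blue) and on its intronless copy Gm12463 (grey) in each of the 8 libraries, in TMM-scaled CPM, with the percentage of their summed counts that fell on Aurkc printed above each pair. Gm12463 is the taller bar in every library, and the Aurkc share runs from 11.4% to 17.8%.

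Per length, Chek1 was the most abundant of the 6 kinases in all 8 libraries, at 465 to 682 TPM. Aurka (89.2 to 273 TPM), Aurkc (68.4 to 214 TPM, its copy left out) and Haspin (14.8 to 339 TPM) followed. Aurka and Aurkc changed places between libraries of the same sample in both the MO injected and the S31A control sample, so this pair has no fixed order there. The place of Haspin went with the experiment: it was in place 2 in all 4 libraries of the MO experiment and in place 4 or 5 in all 4 of the S31A experiment. Haspin has a single exon, and the other 5 kinases have 7 to 15 in the transcript used. The aligner named by the submitters keeps each read in 1 piece, so reads over exon junctions may be missed for those 5 alone. For Aurkc they may instead be placed on Gm12463. What this does to the order of Haspin against the others was not tested. In the S31A injected libraries Haspin, at 14.8 and 29.2 TPM, lay far below Aurka at 132 and 169 TPM and Aurkc at 193 and 174 TPM, a gap wider than that between libraries. Vrk1 (4.37 to 28.8 TPM) and Aurkb (0.0742 to 24.7 TPM) had the lowest medians. Aurkb was last in all libraries except MO injected library 2, where Vrk1 was, and Vrk1 stood above Haspin in S31A injected library 1. With the counts of Gm12463 added to it, over the length of Aurkc alone, Aurkc had the highest median over samples (1085 TPM against 532 TPM for Chek1), an alternative chosen after seeing the data.

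**Figure D2:**
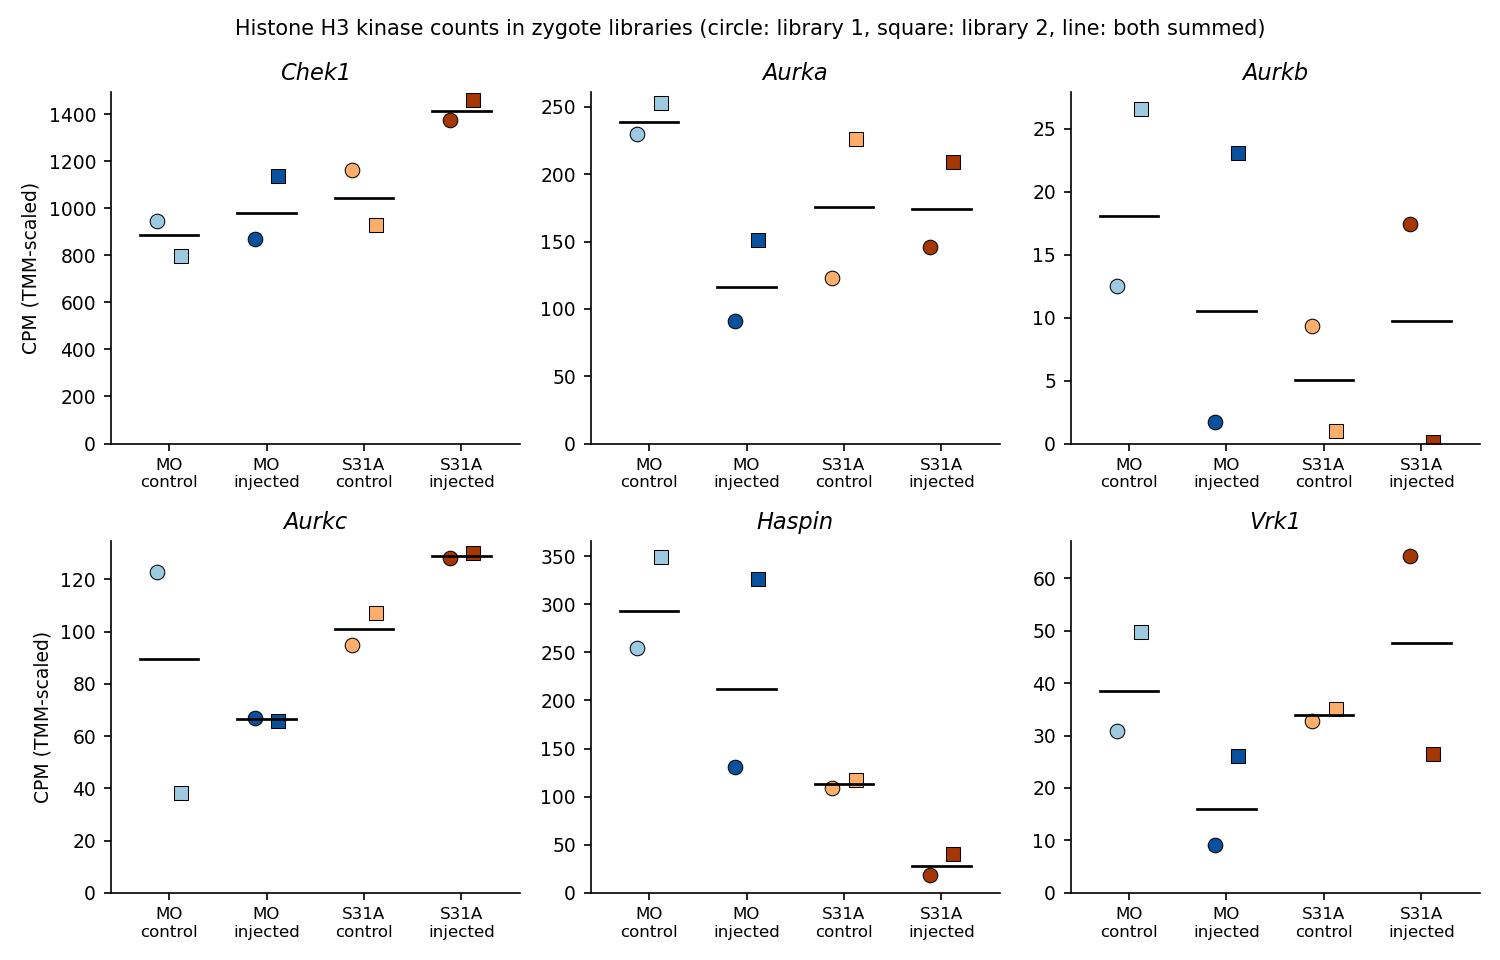
TMM-scaled CPM of the 6 H3 kinases in each library, with circles for library 1, squares for library 2 and a line for the sample with both libraries summed, each panel on its own axis from 0. Haspin is lowest in the S31A injected libraries (18.1 and 40.2 CPM), and Aurkb differs widely between the libraries of a sample.

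Haspin showed the largest difference with S31A injection. The gene is a single exon on chromosome 11 from 73135485 to 73138294 (minus strand), within the span of Itgae on the other strand but with 0 bases in an Itgae exon. Itgae itself had 8 counts in MO control library 1 and 0 in the other 7 libraries. The S31A control libraries had Haspin at 109 and 117 CPM, and the S31A injected ones at 18.1 and 40.2 CPM. The injected libraries both lay below the controls, which were close to each other. Summed over libraries, Haspin was 4.04-fold lower (log2 ratio -2.02, 95% exact counting interval -2.15 to -1.89), and 6.08% of measured genes had a lower ratio. Leaving out S31A injected library 1 gave a log2 ratio of -1.48, and leaving out library 2 of that sample gave -2.63. Over the libraries, edgeR's quasi-likelihood test gave a Benjamini-Hochberg adjusted p of 0.793 for Haspin and DESeq2 gave 0.00412, with 2 of 2 injected libraries lower. Such p-values reflect how far libraries of 1 sample spread, which may be technical.

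Haspin also differed between the controls. The MO control libraries had 255 and 349 CPM, so the S31A control was 2.59-fold lower than the MO control (log2 ratio -1.37, interval -1.44 to -1.30; -1.58 to -1.15 with a library left out). For that comparison of controls the adjusted p over libraries was 0.283 from edgeR and 0.00467 from DESeq2. In the MO injected libraries Haspin was at 131 and 326 CPM, which overlapped the MO control. Its MO log2 ratio was -0.47 (interval -0.53 to -0.41), at -1.16 when library 2 of the injected sample was left out and 0.16 when library 1 was. Every library of the S31A experiment thus lay below every library of the MO experiment, and experiment and injection cannot be compared across controls without this offset.

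Chek1, whose product restrains CDK1 when DNA replication is incomplete, varied least. It lies on chromosome 9 from 36708482 to 36727065. The S31A injected libraries had 1375 and 1462 CPM, above the S31A controls with 1165 and 928 CPM, a 1.36-fold higher level (log2 ratio 0.44, interval 0.41 to 0.46). The ratio was 0.27 to 0.61 with a library left out, and the adjusted p over libraries was 0.793 from edgeR and 0.157 from DESeq2. In the MO experiment injected libraries with 870 and 1137 CPM overlapped the controls with 947 and 798 CPM, with a log2 ratio of 0.14 (interval 0.11 to 0.17). Chek1 thus stayed within 1.36-fold in both comparisons of summed samples.

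Aurka and Vrk1 were the members at least 2-fold lower with MO injection. Aurka, on chromosome 2 from 172356190 to 172370535, had 230 and 253 CPM in the MO controls, and 91.1 and 151 CPM after injection. Both injected libraries lay below both controls, and the summed ratio was 2.06-fold lower (log2 ratio -1.04, interval -1.12 to -0.97). Vrk1 lies on chromosome 12 between 106010228 and 106077426. Its MO controls had 30.9 and 49.8 CPM and its MO injected libraries 9.04 and 26.0 CPM, again without overlap. The summed level was lower by 2.39-fold, with a log2 ratio of -1.26 (interval -1.46 to -1.07). Both ratios leaned on MO injected library 1: leaving it out gave -0.66 for Aurka and -0.56 for Vrk1. Leaving out library 2 of that sample gave -1.39 and -2.07, and leaving out MO control library 2 gave -0.96 and -0.92. The adjusted p over libraries was 0.834 for each from edgeR, and 0.518 for Aurka and 0.791 for Vrk1 from DESeq2.

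With S31A injection neither gene was set apart. Aurka had 146 and 209 CPM where its S31A controls had 123 and 226 CPM, with a log2 ratio of -0.02 (interval -0.09 to 0.04). Vrk1 had 64.3 and 26.5 CPM where its controls had 32.8 and 35 CPM, with a log2 ratio of 0.49 (interval 0.35 to 0.63) that was -0.35 without S31A injected library 1. The injected libraries of Vrk1 fell on either side of the controls.

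Aurkb, the mitotic member of the passenger complex, was too low and uneven for a ratio to be read. It lies on chromosome 11 from 69045647 to 69051664. It had 115 and 162 counts in the MO control libraries, 22 and 212 in the MO injected, 100 and 11 in the S31A control, and 204 and 1 in the S31A injected libraries. The libraries of a single sample were 2.12-fold to 54.7-fold apart, and the injected and control libraries overlapped in both experiments. The MO log2 ratio of -0.78 (interval -1.04 to -0.53) became 0.36 when MO injected library 1 was left out and -3.31 when library 2 was. The S31A control was 3.57-fold below the MO control (log2 ratio -1.83, interval -2.18 to -1.53), or -0.91 without S31A control library 2 and -4.00 without S31A control library 1. In the S31A experiment Aurkb stayed under 10 CPM in both samples, at 9.73 and 5.03 CPM, and was not counted as measured.

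Aurkc, as counted on the gene itself, had 66.9 and 65.7 CPM after MO injection, values lying between those of the MO controls (123 and 38.1 CPM). Its MO log2 ratio was -0.43 (interval -0.54 to -0.32), at 0.83 when MO control library 1 was left out and -0.87 when library 2 was. In the S31A experiment injected libraries had 128 and 130 CPM and controls 95 and 107 CPM, a log2 ratio of 0.35 (interval 0.27 to 0.43) with the injected libraries above the controls. Gm12463 gave a ratio of 0.36 there (interval 0.33 to 0.39), and ran from 0.11 to 0.52 with a library left out, where the gene ran from 0.27 to 0.42. In the MO experiment the copy stood at -0.17 (interval -0.22 to -0.13), or 0.69 without MO control library 1. The S31A control against the MO control was 0.18 for Aurkc and 0.64 for Gm12463, but without MO control library 1 these were 1.44 and 1.5, so the gap within the pair rested on that library. Without MO control library 2 they were -0.26 and 0.30.

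**Figure D3:**
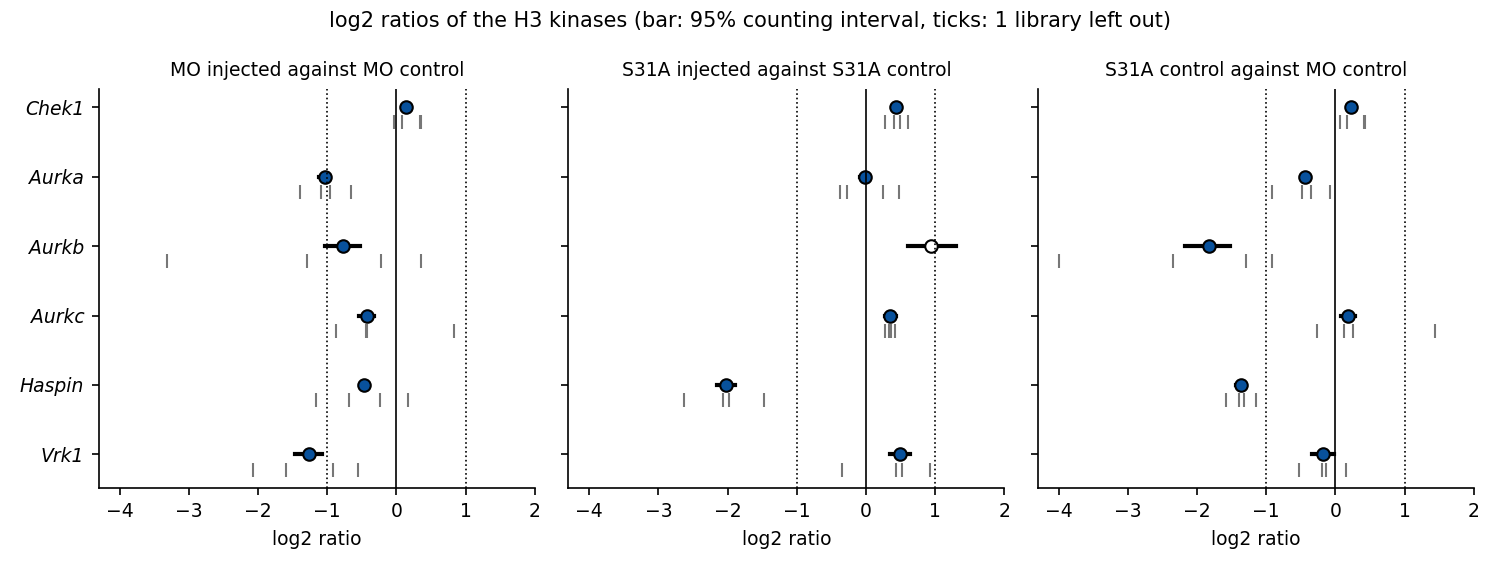
log2 ratios of the 6 H3 kinases in 3 comparisons, with circles for summed samples (open for Aurkb with S31A, which was under 10 CPM), bars for 95% counting intervals and grey ticks for the same ratio with 1 library left out, and dotted lines at 2-fold. The Haspin ratio with S31A injection stays below the lower dotted line for every tick, and those of Aurka and Vrk1 with MO injection have ticks on both sides of it.

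Counts of members are given here beside the share of all genes, and with 5 or 6 members measured a single gene changes a share widely. With MO injection 2 of 6 measured members (Aurka and Vrk1) were at least 2-fold lower, where 13.8% of 8143 measured genes were, and 0 were higher, where 9.86% were. Both were lower without overlap of libraries, as were 11.2% of genes. Their median log2 ratio was -0.62, against -0.03 over all measured genes. With S31A injection 1 of 5 measured members (Haspin) was at least 2-fold lower, where 16.2% of 8175 genes were, and 0 were higher, where 14.0% were. Haspin was lower without overlap, as were 11.4% of genes, and the members' median was 0.35 against 0.02. Between controls 2 of 6 (Aurkb and Haspin) were at least 2-fold lower in the S31A control, where 17.5% of 8307 genes were, both without overlap (15.3% of genes), and 0 were higher (12.1%). Aurkb had only 100 and 11 counts in the S31A control libraries, and its ratio was -0.91 without library 2 of that sample. The S31A control libraries lay below the MO control libraries for 3 of 6 members (Aurka, Aurkb and Haspin), where 25.4% of genes did, and above them for 0, where 21.1% did. The share of members with S31A injection was thus close to that of all genes. For libraries without overlap, both injected libraries lay below both controls for 2 of 6 members with MO (21.5% of genes) and for 1 of 5 with S31A (19.8%), and above them for 0 of 6 (19.1%) and 2 of 5 (19.8%). Over the libraries, edgeR at a Benjamini-Hochberg adjusted p under 0.05 called 0 members in these 3 comparisons, and 0%, 0.0245% and 0% of genes with MO, with S31A and between controls. At an unadjusted p under 0.05 it called 1 member in each: Aurka with MO (5.17% of genes), Haspin with S31A (6.14%) and Haspin between controls (9.99%). DESeq2 called 0 members with MO, where it called 0.700% of genes, and Haspin alone with S31A (7.39% of genes) and between controls (4.36%).

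The S31A ratio minus the MO ratio was at least 2-fold for 4 of 6 members, where 42.2% of 8989 genes were that far apart. These were Aurka, Aurkb, Haspin and Vrk1. The count includes Aurkb, which was under 10 CPM with S31A and whose difference is not read further, and Aurka, which lay at the limit: with total counts alone, DESeq2 size factors or upper-quartile scaling the count was 3. Haspin had a difference of -1.55, the only negative one among the 6, and it ran from -2.17 to -0.86 with a library left out. The difference was 1.02 for Aurka (0.64 to 1.49), 1.74 for Vrk1 (0.91 to 2.55), 0.78 for Aurkc (-0.50 to 1.20) and 0.30 for Chek1 (0.08 to 0.47). For Aurkb it was 1.72 and reached -3.21 without S31A injected library 1. For these differences the adjusted p over libraries was 0.817 for Haspin, 0.862 for Aurka and 0.889 for Vrk1 from edgeR, and 0.495, 0.738 and 0.809 from DESeq2. Neither tool called a member, where edgeR called 0.0334% and DESeq2 1.96% of genes, and edgeR gave 0 members an unadjusted p under 0.05.

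The partners of the kinases were described from 6 lists. Of the passenger complex and its centromere partners, all 9 were measured with MO (median -0.31). At least 2-fold lower were 2 (13.8% of all measured genes) and higher 0 (9.86%). The lower genes were Kif2c, a microtubule depolymerase controlled by Aurora B (log2 ratio -2.06, interval -2.39 to -1.77), and Bub1, the checkpoint kinase whose histone H2A mark also recruits the passenger complex (-2.01, interval -2.23 to -1.80). Kif2c went from 22.6 and 22.7 CPM to 2.76 and 9.06 CPM. Bub1 went from 31.5 and 64 CPM to 6.51 and 17.4 CPM, and neither gene overlapped. Among all measured genes, 11.2% were at least 2-fold lower with MO without overlap. Without MO injected library 1 the ratios were -1.30 for Kif2c and -1.34 for Bub1, and without library 2 of that sample they were -2.97 and -2.74. Ttk, the checkpoint kinase MPS1, had 65.3 and 496 CPM after MO injection and 366 and 464 CPM in its controls, so its ratio of -0.74 rested on MO injected library 1, without which it was 0.29 (-2.63 without library 2). With S31A injection Kif2c stood at 1.17, or 0.62 without S31A control library 2 and 1.92 without S31A control library 1. The scaffold Incenp stood at 0.70, or 1.53 and 0.19 without the same libraries, and Ttk at -0.75 (-0.88 to -0.62). Of 8 measured partners 1 was at least 2-fold higher (14.0% of genes) and 0 lower (16.2%), with a median of 0.17. Each count ran from 0 to 1 with a library left out.

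Of the Aurora A partners, 6 of 7 were measured. Tacc3, a spindle protein phosphorylated by Aurora A, had 102 and 176 CPM in the MO controls and 31.9 and 85.1 CPM after MO injection. Its log2 ratio of -1.29 (interval -1.39 to -1.18) was -0.62 without MO injected library 1 and -2.04 without library 2. The other 5 were within 2-fold, as were all 6 with S31A injection, where the centrosome protein Cep192 stood at 0.88, Ckap5 at 0.77 and Bora, an activator of Aurora A, at -0.54 (-0.66 to -0.40 with a library left out). Without S31A control library 2, Cep192 and Ckap5 passed 2-fold, at 1.82 and 1.67, and without S31A control library 1 they stood at 0.33 and 0.25. The medians were 0.13 with MO and 0.45 with S31A. Among all measured genes, 13.8% passed 2-fold downward and 9.86% upward with MO, and 16.2% and 14.0% with S31A. The activator Tpx2 overlapped in both experiments.

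Of the genes around CHK1, 11 of 16 were measured with MO and 12 with S31A. At least 2-fold higher with MO was 1 of them (9.86% of all measured genes), and 2 were lower (13.8%), with a median of 0.25. Hus1, part of the clamp loaded at stalled forks, stood at 1.3, the CHK1 target Cdc25b at -1.27 and the CDK1 inhibitor Wee1 at -1.82. Without MO injected library 1 these were 0.76, -0.74 and -0.84, all within 2-fold, and without library 2 they were 1.58, -1.81 and -3.37. With S31A injection 2 were higher (Rad1 and Atr), where 14.0% of genes were, and 2 lower (Cdc25a and Timeless), where 16.2% were. The median was 0.23. Timeless stood at -1.04 with overlapping libraries and at -0.31 without S31A control library 2. The phosphatase Cdc25a, which CHK1 marks for destruction, was lower in both injected libraries, which had 30.6 and 29.1 CPM where controls had 71.0 and 88.8 CPM (log2 ratio -1.42, interval -1.55 to -1.29; -1.57 to -1.26 with a library left out). Like Haspin, Cdc25a was also lower in the S31A control than in the MO control (-1.71), without overlap of libraries. That held for 25.4% of genes, and both S31A injected libraries lay below both controls for 19.8%. The clamp gene Rad1 stood at 2.06, but at 0.0934 and 24.3 CPM in the S31A control libraries, and at 1.11 without the first of these and 7.55 without the second. Atr, the kinase that activates CHK1, stood at 1.73 with overlapping libraries and at -1.26 without S31A injected library 1 and 4.34 without S31A control library 2.

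Of the VRK1 relatives and target only Banf1 was measured, the chromatin-bridging protein that VRK1 releases from DNA. With MO it went from 71.4 and 77.9 CPM to 29.8 and 23.1 CPM (log2 ratio -1.45, interval -1.60 to -1.31; -1.67 to -1.31 with a library left out), and with S31A it stood at 0.13 with overlapping libraries (-0.32 to 0.62). Vrk2 and Vrk3 stayed at or under 7.82 CPM in every library. Among other kinases reported to phosphorylate H3, 7 of 10 were measured with MO and 6 with S31A. With MO, Prkcb passed 2-fold upward (9.86% of all measured genes) and Chuk downward (13.8%), with a median of -0.25. With S31A none of the 6 passed upward (14.0%) or downward (16.2%), with a median of 0.36. Jak2, a cytokine-receptor kinase, had 534 to 846 CPM over all libraries and stood at 0.33 with MO (-0.01 to 0.53 with a library left out). With S31A, Chuk, Rps6ka5 and Pim1 all had overlapping libraries. Chuk stood at -0.58, but at -6.22 without S31A injected library 1 and 0.26 without library 2, where it had 0 CPM. Pim1 stood at 0.45, but at -0.73 without S31A injected library 1 and 1.95 without S31A control library 1, and Rps6ka5 at 0.50 (0.15 to 0.99). Prkcb, at 4.65 with MO, had 36.1 and 0 CPM after injection and 0 and 1.81 CPM in its controls, and stood at -1.96 without MO injected library 1. Chuk stood at -1.06 with MO and at -0.61 without MO control library 2.

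The list of phosphatases acting on mitotic H3 marks, which also holds scaffold, targeting and regulatory proteins, had 14 of 16 members measured with MO. Of these, 3 passed 2-fold upward (9.86% of all measured genes) and 1 downward (13.8%), with a median of 0.35. With S31A 12 were measured, 1 passing upward (14.0% of genes) and 3 downward (16.2%), with a median of -0.41. With S31A the lowest was Cdca2, which encodes Repo-Man, the protein that brings PP1 phosphatase to chromatin to remove the haspin mark. Cdca2 stood at 3.50 and 20.3 CPM after S31A injection, where its controls had 55.8 and 76.9 CPM (log2 ratio -2.59, interval -2.81 to -2.40; -4.19 to -1.70 with a library left out). As for Haspin, both injected libraries lay below both controls, which held for 19.8% of genes. The S31A control was also below the MO control (-0.78) without overlap of libraries, which held for 25.4% of genes. The PP2A scaffold Ppp2r1b was higher (3.98, interval 3.63 to 4.46), with 53.5 and 21.2 CPM after injection and 2.52 and 2.29 CPM in the S31A control, although the MO control libraries had 38.0 and 38.3 CPM. Its ratio was 3.10 without S31A injected library 1. Ppp2r5d stood at -1.40, reaching 0.37 when S31A control library 2 was left out and -3.99 when S31A injected library 2 was. The PP1 catalytic subunit Ppp1ca stood at -1.02 with overlapping libraries, and ran from -1.79 (S31A injected library 2 left out) to -0.41 (S31A control library 2 left out). With a library left out, 1 to 6 genes of this list passed downward with S31A and 1 to 6 upward with MO. With MO, Ppp2r5a stood at 1.94, resting on 88.1 CPM in MO injected library 1, and at -0.78 without it; Ppp2r5b stood at 1.55 (1.35 to 1.97 with a library left out), Ppp2r5e at 1.08 (0.56 without MO injected library 1) and the catalytic subunit Ppp2ca at -1.24 (-0.49 without that library and -2.17 without library 2).

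**Figure D4:**
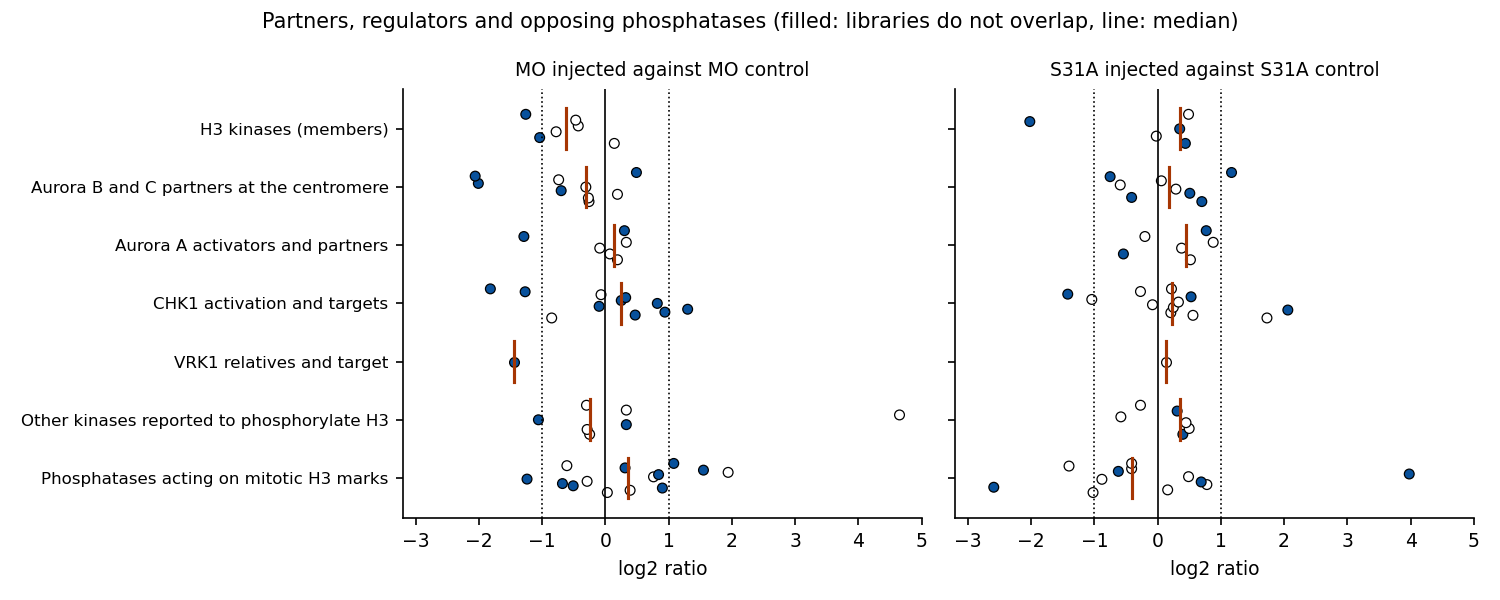
log2 ratios of the members and of 6 lists of partner, regulator and phosphatase genes with MO (left) and S31A (right) injection, 1 circle per measured gene, filled where the injected and control libraries do not overlap, with the list median as a line and dotted lines at 2-fold. In the right panel Haspin (-2.02) and Cdca2 (-2.59) are the leftmost points of their lists and Ppp2r1b (3.98) is the rightmost.

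Genes most like each kinase were found by the root mean square (RMS) difference of log2 CPM profiles, each centred on its mean over the 8 libraries of the 4 samples. This is a description of libraries that share samples and depth. For Chek1 these were Hnrnpa3 and Dazl (RMS 0.10 and 0.11), with Dazl, an RNA-binding protein of germ cells, at 1119 to 2271 CPM. For Aurka they were B4galt4 (0.16) and Idi1 (0.17), for Aurkc Sorl1 (0.17) and Rbbp7 (0.19), and for Vrk1 Nono (0.27) and Fbxw25 (0.29). Haspin was nearest to Sfr1 (0.36), a recombination factor, and Aven (0.42). Sfr1 had 961 and 1554 CPM in the MO control, 541 and 1172 in the MO injected, 383 and 431 in the S31A control and 114 and 288 in the S31A injected libraries. Sfr1 was picked for its likeness to Haspin in these same libraries, so the order of samples that the 2 genes share follows from that choice. Aurkb was nearest to Lgals12 (0.59) and Dhx8 (0.67). RMS differences grow with the spread of a gene about its own mean, which was 2.21 for Aurkb, 1.39 for Haspin and 0.30 for Chek1. They therefore do not rank how closely different kinases were matched. Among the members themselves, the smallest difference was between Chek1 and Aurkc (0.44) and the largest between Aurkb and Aurkc (2.51). The spreads of these genes about their own means were 0.30 for Chek1, 0.58 for Aurkc and 2.21 for Aurkb. The differences alone thus do not show that members moved together or apart.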

How the data were processed

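RNA-seq of mouse zygotes was analysed from the deposited table of raw counts. The submitters' processing notes name FastQC, Bowtie2 (an aligner that keeps each read in 1 piece), featureCounts, DESeq2 and the build mm10. The sources used here do not give versions, the annotation release, the strand setting or how multiply matching reads were counted. Gene lengths were as deposited, per the file headers.

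Counts were scaled with TMM factors from all 8 columns (edgeR 4.0.16, R 4.3.3) and summed per sample. Ratios are log2 ratios of CPM with 2 counts added to each sum; 95% intervals come from exact Clopper-Pearson bounds on the injected share of the summed counts and cover counting error only, since PCR copies cannot be told from molecules. Genes were called measured when either sample of a comparison reached 10 CPM. edgeR's quasi-likelihood test (Benjamini-Hochberg over all measured genes) and DESeq2 1.42.0 were run over libraries as alternatives. DESeq2 was run with default settings on the raw counts of measured genes, with its own size factors, filtering and adjustment. Copies were sought with BLAST+ 2.17.0 from the longest coding sequence per gene. The steps were tested on simulated data.

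Named genes were the 6 members, up to 3 measured genes per list and injection with the largest absolute log2 ratio, and the 2 genes most like each member by profile, predicted symbols left out. Outside this rule, and picked with values in view, are Vrk2, Vrk3, Tpx2, Timeless, Ppp1ca, Ppp2r5e, Itgae, marker genes and the copies of Aurkc. The members and lists were chosen with earlier results of these data known.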

Additional observations from a re-analysis of the deposited data

How the results depend on the processing

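Signs turned with a library left out for 4 of 6 members with MO, 2 of 5 with S31A, 2 of 6 between controls and 2 of 6 differences between injections. Only 1 of these values was 2-fold or more at first: the Aurkb difference between injections, 1.72, at -3.21 without S31A injected library 1 (up to 4.25 without MO injected library 2). The count of members at least 2-fold lower with MO was 1 with upper-quartile scaling, 1 with a filter of 50 CPM, and 0 to 4 with a library left out; for S31A, the count of members at least 2-fold higher was 0 to 1 with a library left out. Between controls, the count lower was 1 with a filter of 50 CPM and 1 to 2 with a library left out, and the count higher 0 to 1. Members at least 2-fold apart between injections numbered 3 with total counts, DESeq2 size factors or upper-quartile scaling, 2 with a filter of 50 CPM and 2 to 4 with a library left out. Replacing the 2-fold limit by adjusted p-values over libraries gave 0 members lower with edgeR in each comparison and 0 apart between injections; DESeq2 gave 0 with MO, 1 between controls and 0 between injections. The filter and left-out libraries change which genes or samples enter; for the rest the cause was not tested. In the order of levels per length, 3 of 6 members kept their place with Gm12463 counts added to Aurkc, and 3 to 6 with a library left out. Haspin with S31A stayed at least 2-fold lower under each scaling, prior count, filter and left-out library tried (log2 ratio -2.63 to -1.48). No paired analysis was possible because each group was 1 sample. The low counts of Aurkb, down to 1 in a library, limit what its ratios show.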
